A study of Danio rerio with 10 samples.

Results

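Among the 15369 genes measured by bulk RNA-seq in EGFP-positive trunk cells, 99 (0.644%) went from a low level in uninjected control embryos to a clearly higher one in *hmx2;hmx3a* double knockdown (DKD) morphants. The 99 genes were chosen by the group means themselves. A gene was a member if its mean was under 10 in controls and at least 10 in DKD morphants, with a ratio of at least 2. Membership, its direction and its size are therefore descriptions of the selection, and no test of them is given. The values are the authors' least squares means of normalized reads, 1 per group. Each stands for 5 biological replicates whose single values were not used here. The authors' own P-values were not used either, so differences are given here without an error and are not set against the spread of replicates. The means are not corrected for transcript length, so ratios are taken only within a gene. Percentiles among all genes and shares of summed means, given below, depend on transcript length too.

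Both groups carried the transgene SU41, in which the *hmx* enhancer CNEIII with a *cfos* promoter drives GAL4-VP16, which switches on EGFP through UAS. EGFP-positive cells of dissected trunks were FAC-sorted at 27 h post fertilization. The 5 control replicates were wild-type, uninjected embryos. For the 5 DKD replicates, 1-cell embryos received 3.5 nl of a mixture of *hmx2* and *hmx3a* translation-blocking morpholinos, each at 2 ng/nl, and a *p53* morpholino at 5 ng/nl. Injected embryos were moved to 32°C from 9 h onwards to offset their slower development, and those with severe defects or without a curled-down tail were discarded before sorting. Injection, the *p53* morpholino, the temperature and the choice of embryos differed along with the knockdown and cannot be told apart from it. The sort also limits the model. It collects every live cell with EGFP, whichever cell type it is. In such bulk samples, a difference in the number of cells of a type and a difference in RNA per cell cannot be told apart.

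V1 cells are inhibitory ventral interneurons of the spinal cord, and dI2 cells are excitatory interneurons that arise more dorsally. Hmx2 and Hmx3a are homeodomain transcription factors of these interneurons. Transcription factors of neighbouring spinal populations, such as Dmrt3 in dI6 cells, are used to tell one class of neuron from another. Neural crest, which gives rise to pigment cells, and primitive red blood cells also lie in the trunk at this stage.

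The 3 morpholinos are shown because they define the DKD group. They are written 5′ to 3′, and capitals mark CAT, the complement of a start codon. This triplet ends both *hmx* oligomers and lies at positions 5 to 7 of the *p53* oligomer.
hmx2 morpholino: ttccgctgtcctccgaattattCAT
hmx3a morpholino: acgtatcctgtgttgtttcgggCAT
p53 morpholino: gcgcCATtgctttgcaagaattg

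A morpholino of this kind blocks translation and need not lower its transcript, so transcript levels do not check the labels. The mean of *hmx2* (ENSDARG00000070954) was 215 in controls and 695 in DKD morphants, a ratio of 3.24. For *hmx3a* (ENSDARG00000070955) the means were 736 and 1804, a ratio of 2.45. Both targeted transcripts were thus higher in the DKD morphants, and both lie far above the limit of 10. Gene symbols below are those of the reference name table. That table spells some zebrafish genes in capitals without the letter that tells duplicated genes (ohnologs) apart, and 56 of the 99 members have such a symbol. A further 4 members have no symbol in it.

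The members started low but not from nothing. Their control means ranged from 0.893 to 9.93, with a median of 5.67, and only 9 were under 2. The lowest mean of any gene was 0.334 in controls and 0.357 in DKD morphants, so no gene of the table is listed at 0. The control means of the members spanned percentiles 0.338 to 42.8 of all genes, and the median member stood at percentile 29.6. Few of them were thus near the bottom of the table in controls. In DKD morphants their means ranged from 10.2 to 273.6, with a median of 18.1. In that group 24 members were under 12, 42 reached 20, 5 reached 50 and 2 reached 100. The median ratio was 3.07, which is 1.62 on the log2 scale, against 0.01 over all genes. Ratios of at least 10 were found for 8 members, and ratios under 3 for 48. Summed over the 99 genes, the means were 544 in controls and 2343 in DKD morphants, or 0.0649% and 0.288% of the summed means of all genes. DMRT3 alone made up 11.7% of the latter sum.

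**Figure D1:**
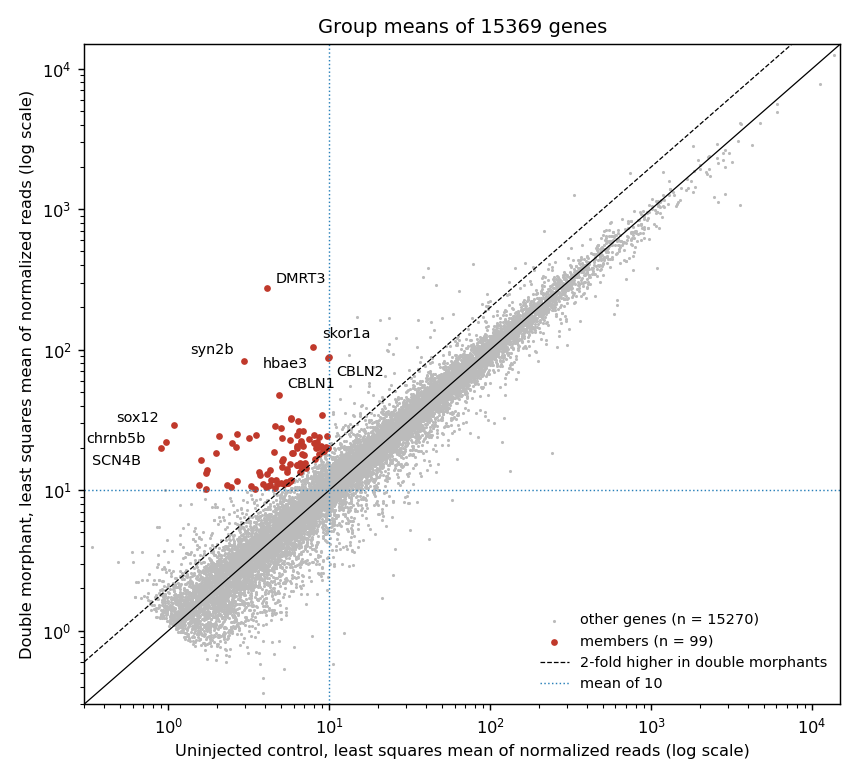
Group means of the 15369 genes, with the uninjected control mean on the x axis and the DKD morphant mean on the y axis, both least squares means of normalized reads on log scales. Red points are the 99 members, which fill the corner left of the vertical and above the horizontal line at 10 and above the dashed 2-fold line, and DMRT3 stands highest at 273.6.

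Among all genes, 365 (2.37%) had a DKD mean at least 2 times the control mean, and for 505 (3.29%) the control mean was at least 2 times the DKD mean. Genes of these kinds are called at least 2-fold higher and at least 2-fold lower below. The 99 members are a share of the 365. The others divide into 178 genes that stayed under 10 in DKD morphants and 88 that were at 10 or more in controls. Members made up 1.5% of the 6603 genes with a control mean under 10. In the opposite direction, 106 genes went from 10 or more in controls to under 10 in DKD morphants and were at least 2-fold lower. Similar numbers of genes thus passed the limit of 10 in each direction. Large ratios were more frequent among genes with low means, in both directions. Of the 126 genes with a control mean under 1, 54 (42.9%) were at least 2-fold higher. Of the 134 genes with a DKD mean under 1, 79 (59.0%) were at least 2-fold lower. Among genes with a control mean of 100 or more, 0.418% were at least 2-fold higher. The limit of 10 in DKD morphants leaves out most genes of the lowest levels, and 2 members had a control mean under 1. How many reads a mean of 10 stands for is not known.

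The genes nearest to each limit were as follows. At the limit on the control mean, CBLN2 (9.93), COL9A2 (9.86) and hbae3 (9.82) were inside, and SLC5A7 (10.03), larp1b (10.2) and blvrb (10.3) were outside. At the limit on the DKD mean, PIEZO2 (10.2), pou4f4 (10.3) and opn8b (10.4) were inside, and pnp4a (9.96), klf17 (9.95) and slco5a1a (9.83) were outside. At the limit on the ratio, SNU13 (2.01), PDGFA (2.01) and ice1 (2.03) were inside, and ADCY7 (1.9998), INSYN2A (1.99) and CRYL1 (1.99) were outside.

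By role, 21 members encode transcription factors or other regulators of transcription, and 21 were grouped under synapse and excitability. Another 6 act in guidance or secreted signalling, 4 in red blood cells and 4 in pigment cells. The other 43 have other or unknown roles. These roles were assigned by hand after the values had been seen. The synapse and excitability group is broad and also holds the neurofilament gene nefla, the peptide receptor gene pth3r and the opsin gene opn8b. Roles were assigned to members only, so no share over all genes is given. Median ratios were 3.23 for transcription, 3.28 for synapse and excitability, 2.33 for guidance and secreted signals, 9.21 for the red cell genes, 3.71 for the pigment cell genes and 2.61 for the rest.

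Transcription factors included the member with the largest ratio. The mean of DMRT3 (ENSDARG00000035290), whose mouse counterpart marks dI6 interneurons, was 4.1 in controls and 273.6 in DKD morphants, a ratio of 66.7 (log2 6.06). The other genes of the list for dI6 and V0d cells did not share it. DBX1, a progenitor gene present on 2 rows, had means of 5.20 and 6.09 on one row and 9.31 and 8.26 on the other. For lbx1a the means were 2.08 and 1.57, for lbx1b 3.98 and 2.40, and for BHLHE22 51.4 and 61.8. Of the 6 genes of that list, DMRT3 was the only one at least 2-fold higher, and the list median was 0.03 on the log2 scale.

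A SoxC gene, sox12, had means of 1.09 in controls and 29.0 in DKD morphants, a ratio of 26.6. The mean of skor1a (ENSDARG00000069030), a co-repressor of the Ski family, was 7.94 in controls and 105 in DKD morphants, a ratio of 13.2. SKOR1, which stands for the other ohnolog, had means of 93.2 and 187, a ratio of 2.01. For skor2 the means were 0.334 and 3.94. Its control mean is the lowest of the table, and both means are too low to read a difference from. The study examined these genes with other V0v genes in the same libraries, so that list is not independent of them. Of its 13 rows, 1 is a member, against 0.644% of all genes. The median log2 difference was 0.82. At least 2-fold higher were 5 rows and at least 2-fold lower 0, against 2.37% and 3.29% of all genes. The 2 further genes among those 5 encode neuronal intermediate filaments. The means of nefma were 163 and 417, and those of one INA row 130 and 303. The V0v determinant EVX1 had means of 51.0 in controls and 34.7 in DKD morphants. Beside these libraries, the paper counted labelled spinal cells by in situ hybridization in *hmx2;hmx3a* deletion mutants. It reports more cells with *skor1a* and with *nefma*. No significant change was reported for *skor1b*, *skor2*, *ebf3a*, *neff1* or *evx1*. Those are cell counts in mutant embryos, not RNA levels in sorted cells of morphants.

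Several members are homeobox or related genes known from other neurons. The homeobox gene tlx2, of a family that acts in dorsal excitatory neurons, had means of 3.50 in controls and 24.6 in DKD morphants, a ratio of 7.03. For pou4f4, of a POU family known from sensory neurons, they were 1.72 and 10.3, a ratio of 5.97. The helix-loop-helix factor EBF1 had means of 7.10 and 15.6, a ratio of 2.2. The means of hoxb1a, best known from the hindbrain, were 9.18 and 19.1, a ratio of 2.08. FOXP2 marks a group of V1 cells in mouse and was the only member in the list of V1 and dI2 genes, with means of 5.48 and 14.1 and a ratio of 2.57. Of these 5 genes, 2 had ratios above 5 and 3 had ratios under 3.

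Lists of markers of other spinal classes held a larger share of members than the whole table, though most of their rows were not members. The lists covered V0v, dI1, dI3 to dI5, dI6 and V0d, V2, motoneurons, V3, Kolmer-Agduhr and Rohon-Beard cells. Of their 63 rows, 6 were members, against 0.644% of all genes and 1.5% of genes with a control mean under 10. The lists were chosen with earlier results of these data known, so this share is a description. At least 2-fold higher were 14 rows and at least 2-fold lower 3, against 2.37% and 3.29% of all genes. The median log2 difference of these rows was 0.40, and 5 of the 14 are in the V0v list described above. Beside tlx2 in the dI3 to dI5 list, DRGX had means of 1.5 and 3.78, while ISL1, a motor and sensory neuron gene, had 192 and 165. In the V2 list TAL1 was the only member, with means of 6.87 and 14.9, while its V2b partner GATA3 had 7.60 and 10.6 and TAL2 had 4.64 and 2.93. In the motoneuron list nefla was the member, while MNX1, which specifies motoneurons, had means of 2.71 and 4.34. The Kolmer-Agduhr list has no member, and of its 12 rows 3 were at least 2-fold higher and 1 was at least 2-fold lower. Among the higher rows, nkx1.2la had means of 1.18 and 7.90. The lower row was urp1, with 3.56 and 1.67, and PKD2L1 had 3.88 and 4.69.

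Genes of the labelled cell types were measured in the same way. Of the 14 rows of the V1 and dI2 list, 3 were at least 2-fold higher, namely HMX2, HMX3 and FOXP2, and 0 were at least 2-fold lower. Over all genes these shares were 2.37% and 3.29%. The V1 gene en1b had means of 754 in controls and 672 in DKD morphants. For PAX2 they were 572 and 458 on one row and 180 and 169 on the other, and for lhx5 557 and 441. Other markers were slightly higher, such as FOXD3 (340 and 395) and lhx1b (99.1 and 109). Of the 14 rows, 8 were higher and 6 lower in DKD morphants, and the list median was 0.09 on the log2 scale. Over 17 rows of pan-neuronal genes the median was -0.11, with 0 rows past 2-fold in either direction. Markers of the labelled cell types were thus present in both groups.

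**Figure D2:**
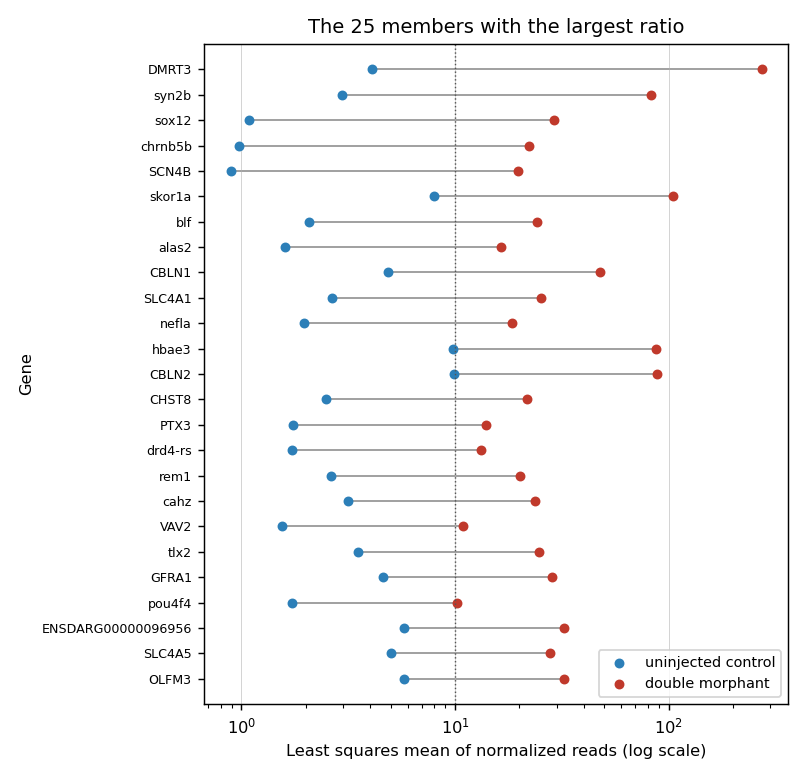
The 25 members with the largest ratio, from DMRT3 (66.7) downwards, 1 gene per line, with least squares means of normalized reads on a log x axis. Blue points are uninjected controls, red points DKD morphants, and the dotted line marks a mean of 10, which each line crosses by the rule.

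Synaptic and membrane proteins made up a second large group. The mean of syn2b (ENSDARG00000101054), a synapsin of synaptic vesicles, was 2.95 in controls and 83.0 in DKD morphants, a ratio of 28.2. CBLN1 and CBLN2 encode secreted cerebellins, which link neurexins to receptors across the synapse. Their means were 4.84 and 47.8 for CBLN1, a ratio of 9.87, and 9.93 and 88.0 for CBLN2, a ratio of 8.86. The cerebellin genes thus had ratios close to each other. OLFM3, an olfactomedin, had means of 5.78 and 32.3 (ratio 5.58), and the adhesion protein gene lrfn4a had 9.02 and 34.1 (ratio 3.78). The means of vamp5, a vesicle SNARE of muscle in mammals, were 5.45 and 11.2 (ratio 2.06).

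Ion channel and receptor subunits were also among the members with the lowest control means. The mean of chrnb5b, a nicotinic acetylcholine receptor subunit, was 0.969 in controls and 22.2 in DKD morphants, a ratio of 22.9. For SCN4B, an auxiliary subunit of voltage-gated sodium channels, it was 0.893 and 19.8, a ratio of 22.2. These are the 2 members with a control mean under 1, a level at which large ratios were frequent throughout the table. With a pseudocount of 5 added to both means, their log2 differences were 2.19 and 2.07 in place of 4.52 and 4.47. The dopamine receptor gene drd4-rs had means of 1.72 and 13.2 (ratio 7.66). The means of rem1, a small GTPase that inhibits calcium channels, were 2.63 and 20.2 (ratio 7.66).

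Other receptor and channel members had smaller ratios. The metabotropic glutamate receptor gene GRM2 had means of 5.06 and 16.2 (ratio 3.20). CHRNB2, a second nicotinic subunit, had 5.71 and 15.4 (ratio 2.69), and the adrenergic receptor gene ADRA2C had 4.03 and 10.5 (ratio 2.61). For CNIH3, an auxiliary protein of AMPA receptors, the means were 6.74 and 18.0 (ratio 2.67). For KCNK10, a potassium channel, they were 4.31 and 11.7 (ratio 2.72), and for PIEZO2, a mechanosensitive channel, 3.43 and 10.2 (ratio 2.97). Peptide receptor genes included VIPR2 (5.96 and 18.3) and pth3r (6.64 and 21.8). The neurofilament gene nefla had means of 1.97 and 18.4, a ratio of 9.35.

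Genes of transmitter synthesis and transport were not among the members. Of 14 rows for transmitter phenotype, 0 were members, against 0.644% of all genes, and only 3 had a control mean under 10. At least 2-fold higher was 1 row and at least 2-fold lower 0, against 2.37% and 3.29% of all genes. The median log2 difference was 0.14, with 8 rows higher and 6 lower. The row past 2-fold was GAD1, the enzyme of GABA synthesis, with means of 142 and 384. A second GAD1 row had 23.4 and 40.8 and GAD2 had 2.77 and 5.21, while SLC32A1 had 613 and 486 and SLC6A5 532 and 415.

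Families defined by gene symbols give a background for these groups. Synaptic release and adhesion families held 35 genes with a control mean under 10, and 6 of these (17.1%) were members, against 1.5% of all genes with such control means. For transmitter receptors it was 5 of 50 (10.0%), for axon guidance genes 4 of 53 (7.55%), for transcription factor families 13 of 237 (5.49%), for ion channel families, voltage-gated and other, 3 of 55 (5.45%) and for solute carriers 6 of 123 (4.88%). The families were written down with the members known, so these shares are descriptions. Over all 8 families together, 39 of 557 such genes (7.0%) were members. Median log2 differences were 0.04 for synaptic families, 0.02 for transmitter receptors and 0.10 for transcription factor families, against 0.01 for all genes. They lay farther from it for the 5 globin rows (2.98) and for the 25 intermediate filament rows (-0.64). Of the 97 synaptic rows, 10 were at least 2-fold higher and 3 at least 2-fold lower. For the 102 transmitter receptor rows these counts were 15 and 7, and for the 438 transcription factor rows 27 and 10. Over all genes the shares were 2.37% and 3.29%. The higher rows include the members of each family.

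Among the 6 members assigned to guidance and secreted signalling, GFRA1, a co-receptor for the growth factor GDNF, had means of 4.60 and 28.6 (ratio 6.21). The Semaphorin and Vegf receptor gene nrp1b had means of 6.93 and 17.7 (ratio 2.55). EPHA4, an ephrin receptor, had 9.56 and 20.2 (ratio 2.11), and EFNA3, an ephrin, had 8.68 and 18.1 (ratio 2.09). TAFA5, a secreted protein of the nervous system, had 8.01 and 24.6 (ratio 3.08), and the growth factor gene PDGFA had 5.56 and 11.2 (ratio 2.01).

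Of the 32 genes listed for red blood cells, 17 matched a row, and 16 of these rows were higher in DKD morphants. The embryonic globin gene hbae3 had means of 9.82 in controls and 87.8 in DKD morphants, a ratio of 8.94. The mean of alas2, the first enzyme of heme synthesis in red cells, was 1.6 and 16.4, a ratio of 10.3. For SLC4A1, the band 3 anion exchanger of the red cell membrane, it was 2.65 and 25.2 (ratio 9.48). For cahz, the red cell carbonic anhydrase, it was 3.17 and 23.7 (ratio 7.47). The zinc-finger gene blf, which acts in zebrafish blood formation, had means of 2.06 and 24.3, a ratio of 11.8. TAL1, which red cell precursors and V2b cells both use, had the smallest ratio of the 6 erythroid members, at 2.16.

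The erythroid genes that the rule left out ranged more widely. Of the 17 rows of the erythroid list, 12 were at least 2-fold higher and 0 were at least 2-fold lower, against 2.37% and 3.29% of all genes, and the list median was 2.85 on the log2 scale. Other globin genes began above 10 in controls. The means were 41.0 and 380 for hbae1.2, 23.3 and 168 for hbae1.1, 20.7 and 163 for hbae1.3 and 13.2 and 92.0 for hbbe3. The copies of alpha globin are closely related in sequence, so how reads divide among them is uncertain. The red cell factor klf17 had means of 0.947 and 9.95 and missed the limit on the DKD mean. Ratios under 2 were found for UROD (1.94), LMO2 (1.31), EPB41 (1.21) and RHAG (1.2), and KLF3 was lower in DKD morphants, at 5.88 and 3.55. Summed means of the list were 211 in controls and 1118 in DKD morphants. None of its 17 rows is at 0 in either group, which holds for every gene of the table. The 9 rows for myeloid and endothelial cells, from a list of 19 genes, included 0 members and 0 genes past 2-fold, with a median of 0.59.

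**Figure D3:**
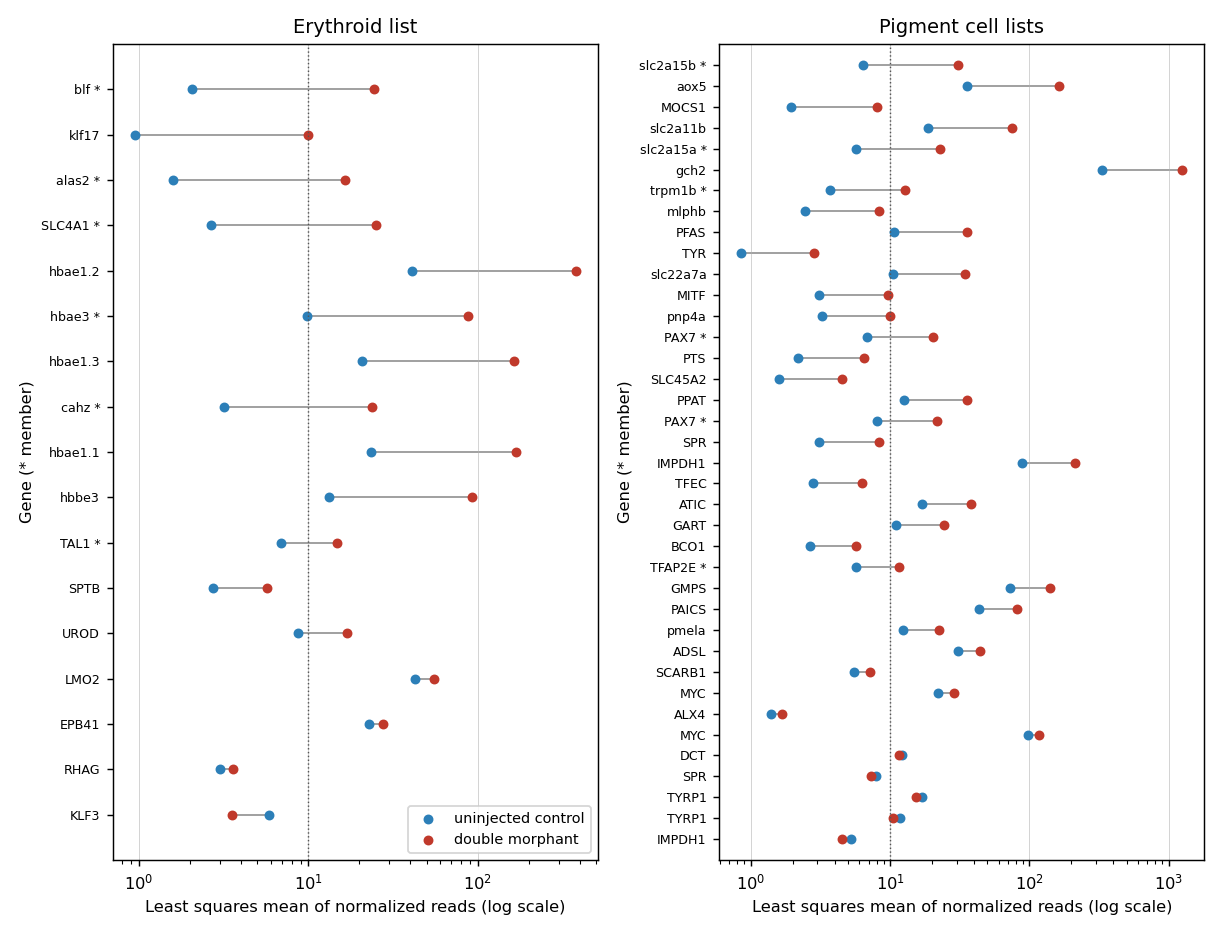
Genes of the erythroid list (left, 17 rows) and of the pigment cell lists (right, 38 rows), ordered by ratio, with least squares means of normalized reads on log x axes and asterisks for members. Red points (DKD morphants) lie to the right of blue points (uninjected controls) in 16 erythroid and 33 pigment rows, and the dotted lines mark a mean of 10.

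Pigment cell genes were higher in the same manner. The glucose transporter family genes slc2a15b and slc2a15a, known from pigment cells of fish, had means of 6.42 and 30.9 (ratio 4.80) and of 5.68 and 22.6 (ratio 3.99). PAX7, a determinant of the yellow xanthophores that also acts in muscle precursors, was a member on both of its rows. The means were 6.88 and 20.5 for ENSDARG00000100398 and 8.06 and 21.8 for ENSDARG00000070818, ratios of 2.98 and 2.71. In the list for the black melanophores, trpm1b, a channel of melanocytes, had means of 3.71 and 12.7 (ratio 3.43), and TFAP2E, an AP-2 factor, had 5.71 and 11.6 (ratio 2.04). RAB32, which directs enzymes to melanosomes, is in none of the lists and had means of 6.75 and 14.7 (ratio 2.18).

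Over the pigment cell lists together, 6 of 38 rows were members, against 0.644% of all genes. At least 2-fold higher were 25 and at least 2-fold lower 0, against 2.37% and 3.29% of all genes. The median log2 difference was 1.34. The lists also hold enzymes of general purine synthesis, such as PFAS (ratio 3.37), ATIC (2.27), GART (2.21), GMPS (1.91) and PAICS (1.89). Among genes of pteridine synthesis, which makes the yellow pigment, the means of gch2, its first enzyme, were 330 and 1252. PTS had means of 2.19 and 6.48, and SPR had 3.07 and 8.28 on one row and 7.90 and 7.34 on the other. The xanthophore gene aox5 had means of 35.4 and 162. MITF, the master regulator of melanocytes, had means of 3.08 and 9.65, just under the limit of 10, and TYR, the tyrosinase, had 0.855 and 2.84. The melanin synthesis genes DCT (12.2 and 11.5) and TYRP1 (16.9 and 15.4 on one row, 11.9 and 10.6 on the other) were not higher. The iridophore gene pnp4a had means of 3.24 and 9.96. None of the 38 rows is at 0, which again holds for every gene of the table.

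SOX10, which neural crest and glia express, had means of 6.30 in controls and 24.7 in DKD morphants, a ratio of 3.93. Its ratio was the largest in both lists. Of 13 neural crest rows 12 were higher in DKD morphants. SOX10 was the only one at least 2-fold higher, and the list median was 0.24. The crest genes FOXD3 (340 and 395) and TFAP2A (263 and 295) were well above 10 in both groups, but FOXD3 is also in the V1 and dI2 list. The crest gene crestin had means of 2.55 and 4.77. Of 8 glial rows SOX10 was again the only one past 2-fold, and the glial median was 0.00.

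Muscle genes divided in 2 directions. The myogenic factor MYOG had means of 6.51 and 26.4 (ratio 4.05), and DMRT2, which acts in somites, had 6.87 and 26.6 (ratio 3.87). MYMK, which myoblasts need to fuse, was 1.99 and 7.54, and MYOD1 was 2.35 and 4.90. Of the contractile genes, actc1b had means of 2788 and 2224 and the slow myosin gene smyhc1 had 232 and 411. Rows at least 2-fold lower included the myosin gene myhz1.1 (614 and 210) and 1 TNNT3 row (92.4 and 35.9). Of the 34 muscle rows, 4 were at least 2-fold higher and 6 at least 2-fold lower, against 2.37% and 3.29% of all genes. The list median was -0.39, and the summed means were 10154 in controls and 7576 in DKD morphants. In the list for cartilage, notochord and skin, 0 of 14 rows were members, against 0.644% of all genes. Of these rows 10 were lower, 5 of them at least 2-fold, and 4 were higher, with a median of -0.71. The 5 were krt5, cyt1, epcam, col1a1a and the skin keratin krt4, which had means of 3557 and 1077. The 4 higher rows were the notochord gene tbxta (ratio 1.83), col8a1a (1.69), ntd5 (1.65) and 1 COL2A1 row (1.99). The other COL2A1 row had a ratio of 0.773. Markers of other trunk tissues thus differed in both directions between the sorted groups. Their part in the members' differences was not tested.

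**Figure D4:**
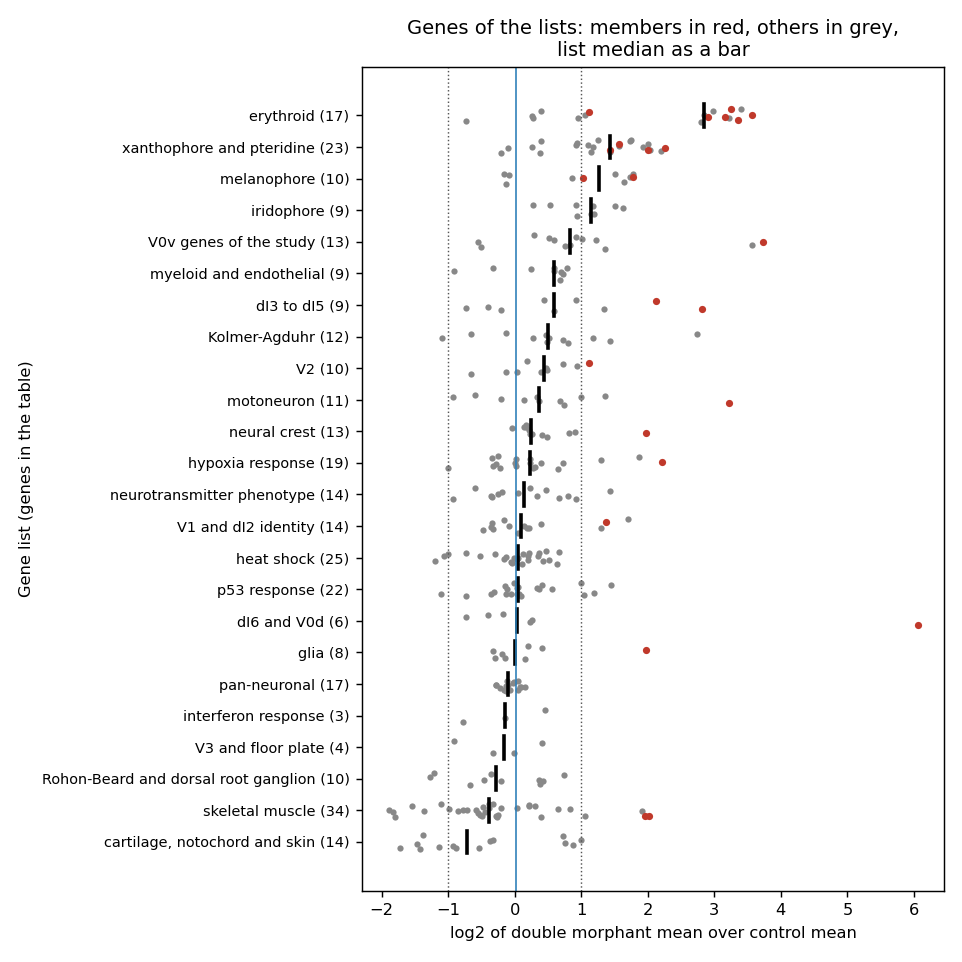
Log2 of the DKD mean over the control mean (x axis) for every gene of the lists with at least 3 rows (y axis, number of rows in brackets), with members in red, other genes in grey and a bar at each list median. The blue line marks the median of all genes (0.01) and dotted lines mark 2-fold, and the erythroid median (2.85) lies farthest right and that of cartilage, notochord and skin (-0.71) farthest left.

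Of the lists for the p53, heat shock, hypoxia and interferon responses, only the hypoxia list held a member. Over all genes, 0.644% were members, 2.37% were at least 2-fold higher and 3.29% at least 2-fold lower. At that share of members, lists this short can hold 0 members without differing from the whole table. The p53 list had 0 members among 22 rows, with 3 at least 2-fold higher, 1 at least 2-fold lower and a median of 0.04. Those higher included the ribosomal protein gene rps27l (11.96 and 27.3) and casp8 (1.54 and 3.18), while the p53 targets cdkn1a (3.88 and 4.86) and mdm2 (19.9 and 20.7) differed by less. The heat shock list had 0 members among 25 rows, with 0 at least 2-fold higher and 3 at least 2-fold lower. Of the 19 hypoxia rows 1 was a member, 3 were at least 2-fold higher and 1 was at least 2-fold lower, with a median of 0.22. The member was EGLN2, a prolyl hydroxylase that marks Hif proteins for degradation, with means of 5.07 and 23.6 (ratio 4.66). Of the 19 genes of the interferon list only 4 matched, on 3 rows with 0 members, so this list covers little of that response.

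Ohnologs and other rows with the same symbol stem show whether whole gene pairs differed. For 29 members the table held such a partner, with 30 partner rows in all. Of these 30, 5 were at least 2-fold higher and 0 were at least 2-fold lower, and their median log2 difference was 0.14. The 5 were SKOR1 and the 2 pairs in which both rows are members, slc2a15a with slc2a15b and PAX7. The rule itself sets both rows of these pairs at 2-fold or more. For none of the others did the partner show a difference of that size. SYN2, the partner of syn2b, had means of 448 in controls and 346 in DKD morphants. NEFL, the partner of nefla, had 184 and 251, and gfra1a, the partner of GFRA1, had 51.2 and 54.2. For OLFM3 the second row had means of 1.92 and 1.40, for GRM2 33.0 and 27.5, and for PIEZO2 3.45 and 1.73. NRP1, the partner of nrp1b, had 29.9 and 17.3. Where a partner is close in sequence, reads of the pair could have been divided between rows in either way, which was not tested.

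**Figure D5:**
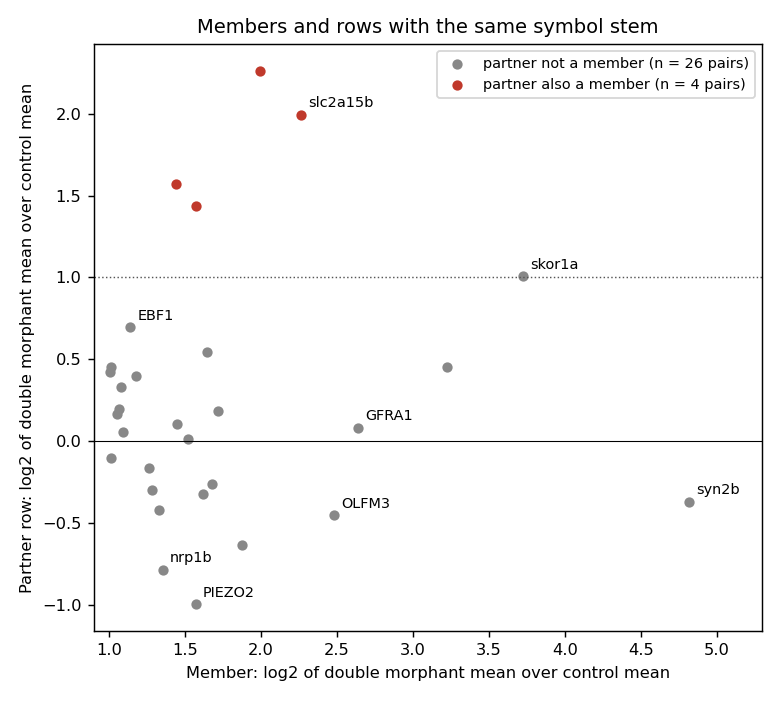
Log2 of the DKD mean over the control mean for members (x axis) and for rows that share their symbol stem (y axis), 30 pairs. Red points are pairs in which both rows are members, and grey points, the other 26, lie below the dotted 2-fold line except SKOR1, the partner of skor1a, at 1.01.

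The remaining members span many functions. CHST8, a sulfotransferase, had means of 2.47 in controls and 21.7 in DKD morphants (ratio 8.78). PTX3, a secreted pentraxin, had 1.75 and 13.9 (ratio 7.96), and VAV2, an activator of small GTPases, had 1.55 and 10.9 (ratio 7.07). These 3 had the largest ratios among the 43 genes of other role. Solute carriers among the members were SLC4A5, a bicarbonate cotransporter (4.99 and 27.9), slc3a2a, the heavy chain of amino acid transporters (3.88 and 11.1), and SLC15A2, a peptide transporter (4.14 and 10.8), beside SLC4A1, slc2a15a and slc2a15b. MOCS2, needed for the molybdenum cofactor of enzymes such as xanthine dehydrogenase, had 5.71 and 11.7 (ratio 2.05).

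The 4 members without a symbol had ratios between 2.07 and 5.66. ENSDARG00000096956 had means of 5.75 and 32.5, ENSDARG00000116937 had 7.50 and 23.0, ENSDARG00000114762 had 5.20 and 11.1, and ENSDARG00000099078 had 9.21 and 19.0. In all, 22 members were in one of the gene lists and 39 in a symbol family.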

How the data were processed

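RNA of EGFP-positive, FAC-sorted cells was sequenced for 5 replicates of uninjected controls and 5 of DKD morphants, in individual libraries made with a low-input, full-length cDNA kit. Such amplification can enlarge the scatter of genes with few molecules. Per the paper's methods and the submitters' processing notes, the authors trimmed reads, aligned them with STAR 2.6.1d, normalized them by TMM and compared the groups by Gene-Specific Analysis in Partek. The paper names the Lawson transcriptome annotation, but the rows carry Ensembl identifiers. The genome build is not given in the sources used here, and no coordinates are printed. The deposited signal values are least squares means of the normalized reads, calculated by the authors, 1 per gene and group. The table also holds 4 columns of the authors' own comparison (P-value, false discovery rate, ratio and fold change), which were not used. The paper gives a sequencing depth per library, but read totals per sample and the filter on low counts were not analysed here. The number of reads behind a mean is therefore not known, and no interval is given.

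Ratios and log2 differences (DKD over control) were computed from the means with Python 3.11.15, NumPy 2.4.6 and pandas 2.3.3, and the code was tested on simulated means. Of 15369 identifiers, 14905 matched the reference name table. No test was run, since each group has 1 value per gene. Because no values of single replicates were used, a planned count model, its filter and the replicate block were not run. Lists (25), symbol families (8) and members were chosen with earlier results of these data known. List genes that matched no row are not counted. Some lists matched few of their genes, such as dI1 (2 of 10) and interferon (4 of 19). Genes named were members in a list or symbol family, the 15 largest ratios, the 10 highest DKD means, the 3 genes on either side of each limit, *hmx2* and *hmx3a*. Other genes named (list genes that are not members, ohnolog partners and members such as TAFA5, PDGFA, RAB32, MOCS2, EGLN2, rem1, CNIH3, PIEZO2, VIPR2 and pth3r where the rule does not take them) were chosen after their values were seen. Some genes that the rule takes are not reported here. Alternatives were other limits (5 and 20), ratios (1.5 and 3), pseudocounts (1 and 5) and scalings.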

Additional observations from a re-analysis of the deposited data

How the results depend on the processing

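The number of members depended on the ratio asked for. Beside 99 genes at a ratio of 2, there were 210 at 1.5 and 51 at 3, and 54 when a pseudocount of 5 was added to both means before the ratio was taken. With a pseudocount of 1 there were 83. Limits of 5 and 20 in place of 10 gave 108 and 82 genes, of which 39 and 42 were among the 99. Scaling both groups to the same summed mean gave 109 and centring on the median ratio 97. The median log2 difference of the members was 1.62 and lay between 1.04 (pseudocount of 5) and 1.66 (same summed mean). With a pseudocount of 5, the ratios of 42 of the 99 single members moved by more than 1.5-fold. They moved most for the lowest control means, as adding a constant must make them. The log2 difference of sox12 went from 4.74 to 2.48, that of chrnb5b from 4.52 to 2.19 and that of SCN4B from 4.47 to 2.07. No sign could change, since the rule sets the members well above the shifts that these settings make. The number of members in a gene list ranged from 17 to 27 around 22.

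No paired analysis was possible because each group has a single mean per gene, although the labels of the groups share replicate numbers. For the same reason no replicate was left out, and no count model or filter on low counts was run. The comparison of promoter motifs was not run, and the genome position of members was not analysed here. The number of reads behind a mean was not known, so no error is given for ratios of genes with means of a few normalized reads, which include most members in controls.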

Other observations

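Genes at least 4-fold higher in DKD morphants that stayed under a mean of 10 numbered 18, and they were left out of the members by the limit on the DKD mean alone. The co-repressor gene skor2 (0.334 in controls and 3.94 in DKD morphants, a ratio of 11.8) and the red cell factor klf17 (0.947 and 9.95, a ratio of 10.5) had the largest ratios among them. The homeobox gene nkx1.2la had means of 1.18 and 7.90. MOCS1, which acts with MOCS2 in making the molybdenum cofactor, had 1.95 and 8.03. The potassium channel gene KCNG2 had 1.68 and 8.58, and FLRT1, an adhesion and guidance protein, had 1.18 and 4.81. Means this low carry an error that was not measured here. With a pseudocount of 5, the log2 differences of skor2 and klf17 were 0.74 and 1.33.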
